A study of Mus musculus with 8 samples.

Results

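The unfolded protein response (UPR) genes described here are *Hspa5*, *Hsp90b1*, *Xbp1*, *Atf4*, *Atf6*, *Ddit3*, *Dnajb9*, *Calr*, *Pdia4* and *Herpud1*. They were chosen by name as genes of this pathway, the rule using no measured value, and make up 10 of the 45706 genes listed for each sample. Their mRNA was measured in pulldowns of ribosomes tagged in parvalbumin-expressing (PV+) interneurons, the fast-spiking inhibitory cells of the cortex. There were 4 CNO-treated and 4 vehicle-treated samples, and the question was which transcripts change when these cells are kept active. All mice carried PvalbFlp/+ and Neurod6Cre/+ and had received, on postnatal day 1, an adeno-associated virus (AAV, flox and fdio design) that carries HA-RPL10a and myc-hM3Dq. In both groups the virus thus brings a tagged ribosomal protein, by which ribosome-bound mRNA is pulled down, together with hM3Dq, a designed receptor that excites neurons when its ligand CNO is present. CNO at 1 mg/kg or vehicle was given in 5 injections over about 48 h to mice of postnatal day 42 to 70. Flp recombinase from the parvalbumin gene switches the construct on, Cre from *Neurod6* keeps it off in pyramidal cells, infection was sparse, and each sample pooled the somatosensory cortex (S1) of 4 brains. Every mouse therefore carried the virus and the receptor, and samples are pools rather than single animals.

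The UPR is the response of the endoplasmic reticulum (ER) to proteins that fail to fold. Its sensors PERK, IRE1 and ATF6 sit in the ER membrane, where they are held back by the chaperone BiP. PERK slows translation and favours that of ATF4, IRE1 splices the *Xbp1* mRNA into the form that encodes an active transcription factor, and ATF6 is cut so that its cytosolic part enters the nucleus. Together these factors raise chaperones, folding enzymes and the machinery that removes misfolded proteins, and ATF4 also drives *Ddit3*, which encodes CHOP.

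Part of these genes hold known response elements in their promoters, and the promoters in which one was found are printed. The elements were searched because they are known in this pathway. Their presence in its genes, set beside the share of all promoters, is therefore a description and not a test. RefSeq promoters on GRCm38.p6, from 250 bases before to 50 after the start of transcription, were found for 9 of the 10 genes, the exception being *Atf6*. Both strands were searched for the ER stress response element (ERSE, the blocks CCAAT and CCACG with 9 bases between them), ERSE-II (ATTGG and CCACG with 1 base between them), the UPR element (TGACGTGG) and the C/EBP-ATF response element (TGATGCAAT). ERSE and ERSE-II are built from the same pair of blocks, since ATTGG is CCAAT on the other strand, and the UPR element holds the second block on the other strand. ERSE was present in 0.119% of 32851 promoters, and in those of *Hspa5*, *Calr* and *Hsp90b1*, where it occurred on the gene strand in *Hspa5*, on the opposite strand in *Calr* and once on each strand in *Hsp90b1*. ERSE-II was present in 0.037% of all promoters and in that of *Herpud1*. The UPR element (0.676% of all promoters) and the C/EBP-ATF response element (0.192%) were found in 0 of the 9 promoters. The 250 bases before the start are given 5′ to 3′ on the gene strand, with the fixed bases of each match in capitals. They lie at chr2:34771840-34772089 on the plus strand for *Hspa5*, chr8:84846932-84847181 on the minus strand for *Calr*, chr10:86705445-86705694 on the minus strand for *Hsp90b1* and chr8:94386179-94386428 on the plus strand for *Herpud1*. The GENCODE models of *Hspa5*, *Hsp90b1* and *Calr* begin further upstream than those of RefSeq, inside these windows.
Hspa5: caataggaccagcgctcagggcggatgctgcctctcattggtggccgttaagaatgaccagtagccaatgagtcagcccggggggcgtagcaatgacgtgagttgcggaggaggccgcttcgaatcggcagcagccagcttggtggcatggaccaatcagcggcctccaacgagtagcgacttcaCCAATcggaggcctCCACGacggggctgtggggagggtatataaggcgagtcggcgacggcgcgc
Calr: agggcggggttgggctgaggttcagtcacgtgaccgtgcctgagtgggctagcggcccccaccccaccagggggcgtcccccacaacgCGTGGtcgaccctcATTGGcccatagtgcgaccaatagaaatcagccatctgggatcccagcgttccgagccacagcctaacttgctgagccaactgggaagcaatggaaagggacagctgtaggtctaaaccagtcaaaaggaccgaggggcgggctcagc
Hsp90b1: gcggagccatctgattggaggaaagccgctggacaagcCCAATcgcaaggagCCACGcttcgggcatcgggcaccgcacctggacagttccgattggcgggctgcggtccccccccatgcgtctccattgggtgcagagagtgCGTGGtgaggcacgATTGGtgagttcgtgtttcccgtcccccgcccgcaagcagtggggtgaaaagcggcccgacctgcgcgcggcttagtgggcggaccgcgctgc
Herpud1: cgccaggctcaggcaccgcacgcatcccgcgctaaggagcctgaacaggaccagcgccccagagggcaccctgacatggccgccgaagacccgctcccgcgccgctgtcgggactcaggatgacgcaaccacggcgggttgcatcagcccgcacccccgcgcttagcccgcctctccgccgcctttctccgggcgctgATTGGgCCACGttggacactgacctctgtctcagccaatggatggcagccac
Counted from the start, the matches lie at -65 to -47 in *Hspa5*, -162 to -144 in *Calr*, -212 to -194 and -107 to -89 in *Hsp90b1*, and -52 to -42 in *Herpud1*.

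Between 44064161 and 49413273 reads per sample were counted on genes. Levels in CPM are reads scaled to the same library total, after TMM normalization between samples. The smallest level this depth can show, taken as 3 reads, corresponds to 0.0607 to 0.0681 CPM when scaled to the library total without TMM normalization. This limit reflects counting error alone, since PCR copies of a molecule are counted more than once. The lowest of the 10 genes, *Dnajb9*, had 517 to 1030 reads per sample, far above this limit. After genes with under 10 reads in 4 or more samples were left out, 17495 genes were tested, the 10 UPR genes among them. The label of the cells was checked against markers. All 12 PV+ interneuron markers, *Pvalb* and *Gad1* among them, were detected in every sample, with a summed level of 3175 to 5082 TPM (a level per transcript length, scaled to the same total in every sample) in the CNO samples and 1568 to 4044 TPM in the vehicle samples. All 12 pyramidal cell markers were also detected, at 1564 to 2173 TPM with CNO and 1858 to 2598 TPM with vehicle. Vehicle replicate 1 stood apart, with the lowest PV+ interneuron markers of the 8 samples (1568 TPM, against 3794 to 4044 in the other vehicle samples) and the highest pyramidal cell markers (2598 TPM, against 1858 to 2401). It also had the highest summed levels of the 6 astrocyte markers (337.7 TPM, against 185.7 to 294.6 with CNO and 234.3 to 277.4 in the other vehicle samples) and of the 6 microglia markers (79.92 TPM, against 41.95 to 66.57 and 52.78 to 61.72). The summed levels of 6 markers each of oligodendrocytes (563.2 to 1020 TPM with CNO, 777.2 to 999.4 TPM with vehicle), other interneurons (435.8 to 472.9 and 414.8 to 555.2 TPM) and blood vessel cells (31.11 to 93.53 and 48.26 to 74.21 TPM) overlapped between the groups. These samples are pulldowns of tagged ribosomes, so marker levels need not follow the cell makeup of the tissue. Fewer cells of a type, less RNA per cell and the yield of the pulldown cannot be told apart in them. No sample of whole cortex RNA is among the 8, so the enrichment of PV+ interneuron mRNA was not tested. Part of the UPR gene levels may come from other cells.

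All 10 genes were expressed on ribosomes in every sample. On the TPM scale, which allows levels of different genes to be set beside each other, *Calr*, which encodes the calcium-binding lectin chaperone calreticulin, was highest in vehicle-treated mice, at 205 ± 22.9 TPM (SD, n = 4). A group of 4 genes followed with means of 135 to 147 TPM and overlapping samples, namely *Xbp1*, *Atf4*, *Hspa5* and *Hsp90b1*. *Ddit3* (94.0 ± 18.5 TPM) and *Herpud1* (86.1 ± 6.18 TPM) overlapped each other and had lower means than that group, although the 3 highest *Ddit3* samples (103 to 104 TPM) were above the lowest *Atf4* sample (100.2 TPM). *Atf6* had 44.3 ± 5.63 TPM, and *Pdia4* (26.0 ± 4.57 TPM) and *Dnajb9* (19.7 ± 2.99 TPM), which overlapped, were lowest. The vehicle samples of neighbours in this order did not overlap between *Calr* and *Xbp1*, *Hsp90b1* and *Ddit3*, *Herpud1* and *Atf6*, and *Atf6* and *Pdia4*. The vehicle mean of *Calr* was above those of 95.8% of the tested genes and that of *Dnajb9* above those of 57.5%. *Xbp1* varied least between vehicle samples, with an SD of 3.77% of its mean, and *Ddit3* (19.7%) and *Atf4* (19.6%) varied most.

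**Figure D1:**
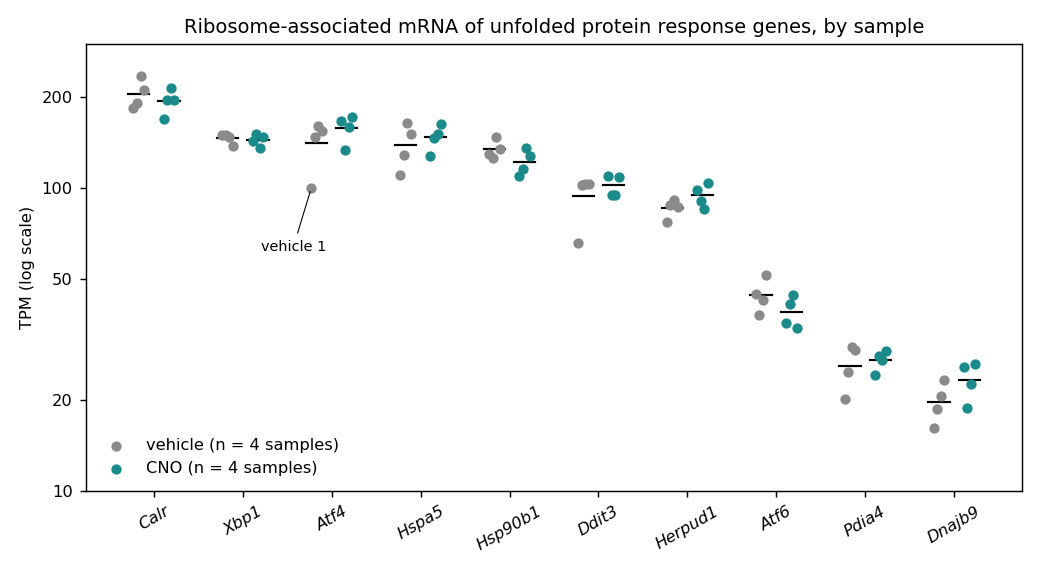
Level of each UPR gene in TPM on a log axis, in the order of the vehicle means, with 1 point per sample (grey, 4 vehicle samples; teal, 4 CNO samples) and a black line at each group mean. In each of the 10 genes the CNO and vehicle samples overlap, and the lowest point of *Atf4*, vehicle replicate 1, is marked.

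For none of the 10 genes did the difference between CNO-treated and vehicle-treated mice pass the test. The chaperone genes *Hspa5*, *Hsp90b1*, *Calr* and *Pdia4* had means in the CNO samples of 0.961 to 1.11 times those in the vehicle samples, and the largest ratio was 1.25, for *Dnajb9*. The test was edgeR's quasi-likelihood test with Benjamini-Hochberg adjustment over all tested genes. At an adjusted p under 0.05 there were 0 of the 10 genes, against 0.00% of the 17495 tested genes, and their adjusted p lay between 0.817 and 0.957. At an unadjusted p under 0.05 there were again 0, against 4.09% of all genes, and in 0 of them did all CNO samples lie on one side of all vehicle samples, against 2.42% of all genes. The likelihood ratio test with robust dispersion called 0 of the 10 genes (0.0857% of all genes) and DESeq2's Wald test also 0 (0.0629%). At an unadjusted p under 0.05 the likelihood ratio test had 1 of them, *Dnajb9*, against 4.81% of all genes. The log2 fold changes lay between -0.11 and 0.32 with a median of 0.14, and 8 of the 10 were above 0, against 50.4% of all tested genes, whose median was 0.0014. With 4 samples per group the exact permutation test can give no p below 0.0286, and for the 10 genes it gave 0.143 to 0.857 on log2 CPM.

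**Figure D2:**
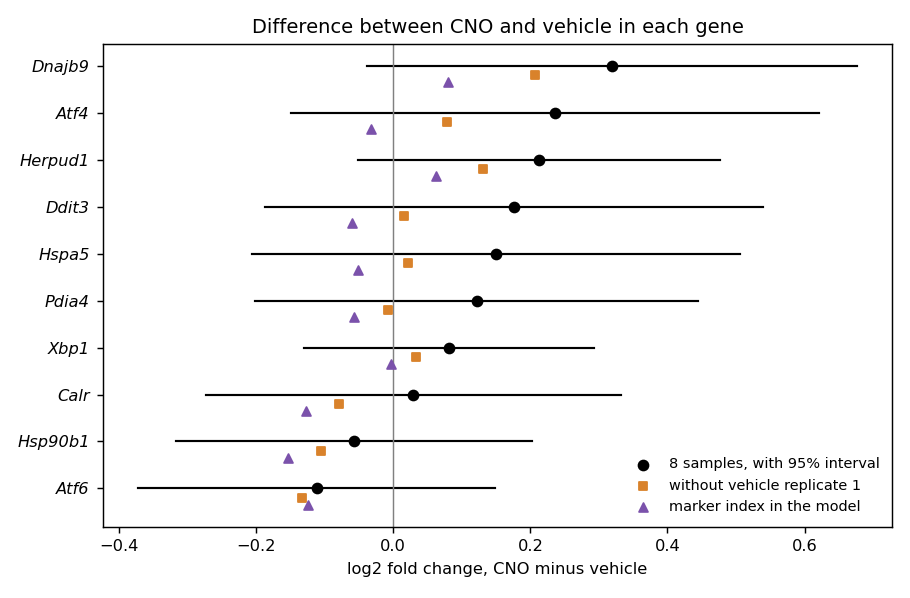
Log2 fold change (CNO minus vehicle) of each UPR gene, with the value from all 8 samples and its 95% interval (black), the value without vehicle replicate 1 (orange squares) and the value with a marker index (PV+ interneuron against pyramidal cell) in the model (purple triangles). All 10 intervals include 0, the black points run from -0.11 (*Atf6*) to 0.32 (*Dnajb9*), and every other point lies to the left of its black point.

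The sensors and transcription factors come first in the pathway. *Atf6* (ENSMUSG00000026663; GRCm38, chromosome 1, 170704674 to 170867771, minus strand, protein-coding) encodes the membrane-bound sensor itself. Its level in CNO replicates 1 to 4 was 121, 129, 149.6 and 121 CPM, and in vehicle replicates 1 to 4 it was 135, 121, 142 and 164 CPM. The highest sample was a vehicle sample and the groups overlapped, and the log2 fold change was -0.11 (standard error 0.12, 0.773-fold to 1.11-fold at 95%). *Xbp1* (ENSMUSG00000020484; chromosome 11, 5520659 to 5525893, plus strand) encodes the factor made after splicing by IRE1, and counts per gene do not separate its spliced from its unspliced mRNA. It had 103 to 119 CPM with CNO and 94.0 to 113 CPM with vehicle. The difference, 0.081 on the log2 scale, had the smallest standard error of the 10 genes (0.096), and its interval, 0.914-fold to 1.22-fold, spanned a ratio of 1. On log2(TPM + 1) with limma its direction was reversed, at -0.020, where the median of all tested genes was -0.063.

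*Atf4* (ENSMUSG00000042406; chromosome 15, 80255184 to 80257541, plus strand) encodes the factor translated when PERK slows other translation. Its level was 122, 91.1, 117 and 131 CPM in CNO replicates 1 to 4 and 65.5, 103, 116 and 107 CPM in vehicle replicates 1 to 4. The groups overlapped, and vehicle replicate 1 was the lowest sample. The log2 fold change was 0.24 (standard error 0.17, 0.902-fold to 1.54-fold at 95%), and 0.078 without vehicle replicate 1. *Ddit3* (ENSMUSG00000025408; chromosome 10, 127290774 to 127296288, plus strand) encodes CHOP, a factor linked to cell death under lasting ER stress. Its level was 35.7, 28.9, 30.6 and 36.0 CPM in CNO replicates 1 to 4 and 19.2, 32.7, 33.6 and 30.7 CPM in vehicle replicates 1 to 4. Vehicle replicate 1 was again the lowest of the 8 samples, and the other 3 vehicle samples lay within the range of the CNO samples. For *Ddit3* the log2 fold change was 0.18 (standard error 0.16, 0.879-fold to 1.45-fold at 95%), and 0.016 without that sample. Its exons overlap those of a second GENCODE model, also named *Ddit3*, on the same strand over 6.1% of their length. They also overlap those of *Mars* on the opposite strand over 4.0%, and 6.78% of the 31-base stretches of its transcripts also occur in those of other genes.

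Among the chaperones, *Hspa5* (ENSMUSG00000026864; chromosome 2, 34771970 to 34777547, plus strand) encodes BiP, the main chaperone of the ER and the classical readout of the response. Its level was 142, 149, 169 and 192 CPM in CNO replicates 1 to 4 and 107, 138, 181 and 161 CPM in vehicle replicates 1 to 4. The highest sample was a CNO sample and the lowest vehicle replicate 1, whereas the other 6 samples were interleaved. The log2 fold change was 0.15 (standard error 0.16, 0.867-fold to 1.42-fold at 95%), and 0.021 without vehicle replicate 1. *Hsp90b1* (ENSMUSG00000020048; chromosome 10, 86690209 to 86705509, minus strand), which encodes the ER form of HSP90, had 132 to 168 CPM with CNO and 142 to 180.4 CPM with vehicle. This corresponds to -0.058 on the log2 scale (standard error 0.12, 0.803-fold to 1.15-fold at 95%), *Hsp90b1* and *Atf6* being the 2 genes below 0, and its direction was reversed without CNO replicate 2 (0.00014) and without vehicle replicate 3 (0.018). Of its 31-base stretches, 12.34% also occur in other genes, foremost in the pseudogene 1810014B01Rik, which overlaps it on the opposite strand.

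*Calr* (ENSMUSG00000003814; chromosome 8, 84841850 to 84846934, minus strand) had 131 to 162 CPM with CNO and 111 to 169 CPM with vehicle, so that the vehicle samples enclosed all CNO samples. Its log2 fold change of 0.029 (standard error 0.14, 0.827-fold to 1.26-fold at 95%) was the closest to 0 of the 10. Direction was not fixed for *Calr*, since leaving out CNO replicate 3, CNO replicate 4 or vehicle replicate 1 gave -0.024, -0.018 and -0.079. Scaling by library size only gave -0.025, where the median of all tested genes was -0.051. *Pdia4* (ENSMUSG00000025823; chromosome 6, 47796141 to 47813430, minus strand), a disulfide isomerase that helps proteins form their disulfide bonds, had 26.5 to 32.9 CPM with CNO and 19.7 to 32.5 CPM with vehicle. For *Pdia4* the log2 fold change was 0.12 (standard error 0.15, 0.869-fold to 1.36-fold at 95%), and it was reversed to -0.0070 without vehicle replicate 1, the sample with its lowest level.

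Of the chaperone and degradation genes among the 10, the largest log2 fold changes were those of *Dnajb9* and *Herpud1*. *Dnajb9* (ENSMUSG00000014905; chromosome 12, 44205559 to 44210326, minus strand) encodes ERdj4, a co-chaperone of BiP and a known target of XBP1. In CNO replicates 1 to 4 it had 20.6, 14.0, 18.2 and 21.7 CPM, and in vehicle replicates 1 to 4 it had 11.6, 14.3, 16.4 and 17.5 CPM. In 3 of the 4 CNO samples *Dnajb9* was above every vehicle sample in CPM, but CNO replicate 2 was below all vehicle samples except vehicle replicate 1. In TPM, CNO replicate 3 (22.6) was below vehicle replicate 4 (23.2), and CNO replicate 2 (18.9) was above vehicle replicate 2 (18.7). Its log2 fold change of 0.32 (standard error 0.16, 0.974-fold to 1.60-fold at 95%) had, by the quasi-likelihood test, an unadjusted p of 0.0754 and an adjusted p of 0.817, and an exact permutation p of 0.143. Over all alternatives its log2 fold change stayed above 0, the unadjusted p was under 0.05 in 4 of them (0.0141 without CNO replicate 2, 0.0453 without vehicle replicate 4, 0.0470 with no filter on low counts and 0.0427 in the likelihood ratio test, beside the exact permutation p above), and its adjusted p ranged from 0.472 to 1.00. Without vehicle replicate 1 the value was 0.21. In *Dnajb9*, 10.77% of the 31-base stretches also occur in the gene model Gm6568. *Herpud1* (ENSMUSG00000031770; chromosome 8, 94386438 to 94395377, plus strand) encodes a membrane protein of ER-associated degradation. It had 77.4, 63.4, 63.0 and 79.9 CPM in CNO replicates 1 to 4 and 51.2, 64.7, 68.0 and 60.8 CPM in vehicle replicates 1 to 4. CNO replicates 1 and 4 were above all vehicle samples and the other CNO samples were among them. For *Herpud1* the difference was 0.21 on the log2 scale (standard error 0.12, 0.965-fold to 1.39-fold at 95%), and 0.13 without vehicle replicate 1.

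Most of the 10 genes differed between samples of the same group in a shared way. In CPM, vehicle replicate 1 was the lowest of the 8 samples in 8 of them (all but *Hsp90b1* and *Atf6*), against 30.4% of all tested genes. CNO replicate 4 was the highest in 7 of them in CPM, against 22.9% of all genes. Fewer genes showed this in TPM, in which *Calr* was lowest in CNO replicate 1 and *Xbp1* in CNO replicate 3. CNO replicate 4 was highest in TPM for *Atf4*, *Dnajb9* and *Herpud1*, but not for *Hspa5*, *Xbp1*, *Ddit3* and *Pdia4*. On the log2 CPM scale vehicle replicate 1 lay below the mean of the other vehicle samples by a median of -0.47 over the 10 genes, against -0.022 over all tested genes. *Ddit3* (-0.75) and *Atf4* (-0.73) were furthest below, and *Atf6* (-0.060) was nearest to the other vehicle samples. The same samples stood apart in the markers. An index, the mean log2 CPM of the 12 PV+ interneuron markers minus that of the 12 pyramidal cell markers, was 1.56, 0.796, 1.30 and 1.97 in CNO replicates 1 to 4 and -0.41, 0.945, 1.32 and 1.22 in vehicle replicates 1 to 4. It was thus lowest in vehicle replicate 1 and highest in CNO replicate 4.

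**Figure D3:**
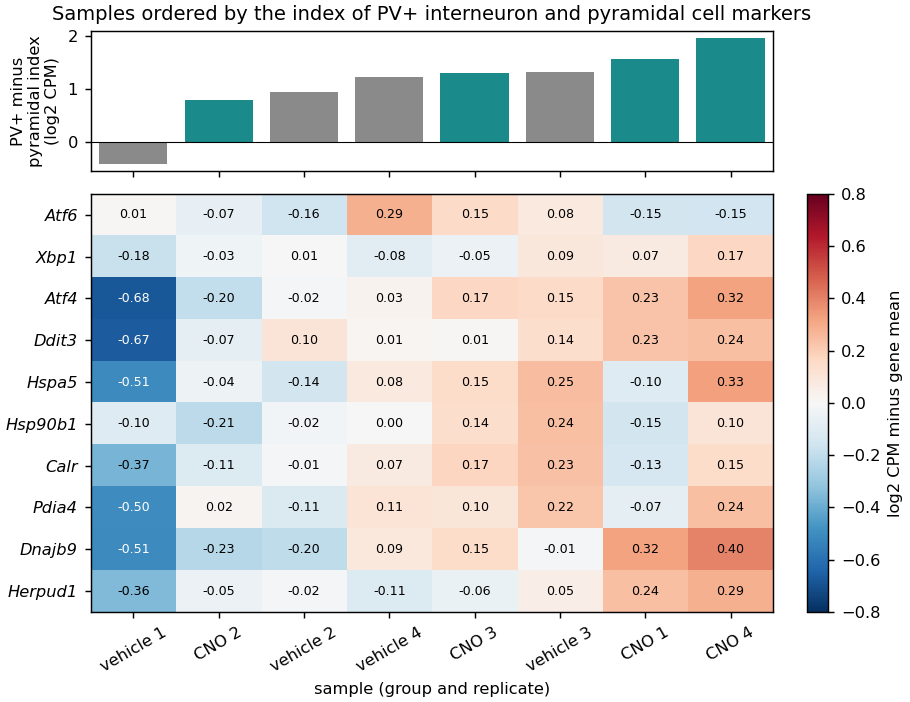
Upper panel, marker index, in log2 CPM, of PV+ interneurons against pyramidal cells in each sample, in rising order, with CNO in teal and vehicle in grey. Lower panel, log2 CPM of each UPR gene minus that gene's mean over the 8 samples, with the value in each cell. Vehicle replicate 1, on the left, is the lowest sample in 8 of the 10 genes, and CNO replicate 4, on the right, the highest in 7.

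Across the 8 samples, the level of 8 of the 10 genes correlated with this index at an adjusted p under 0.05 (exact permutation of Pearson's r over 40320 orders, two-sided, Benjamini-Hochberg over the 10 relations). *Atf4* followed it most closely, with r = 0.985 (adjusted p = 0.000496, exact permutation) and Spearman's rho = 0.976 (adjusted p = 0.00397, exact permutation). An r at least as high was found in 0.817% of all tested genes. *Dnajb9* had r = 0.937 and rho = 0.929 (adjusted p = 0.000744 and 0.0112, exact permutation), *Ddit3* r = 0.953 and rho = 0.905 (0.00459 and 0.0152), and *Herpud1* r = 0.905 and rho = 0.810 (0.00459 and 0.0544). For *Pdia4*, *Hspa5*, *Xbp1* and *Calr*, r was 0.874, 0.873, 0.849 and 0.772 (adjusted p = 0.0188, 0.0135, 0.0130 and 0.0356, exact permutation), whereas rho was 0.690, 0.714, 0.786 and 0.524 (0.0991, 0.0960, 0.0559 and 0.246). *Hsp90b1* (r = 0.431, rho = 0.476, adjusted p = 0.328 and 0.270, exact permutation) and *Atf6* (r = -0.112, rho = -0.143, 0.802 and 0.752) passed by neither measure. Vehicle replicate 1 and CNO replicate 4 lie furthest from the median of the index. Without them r remained 0.953 for *Atf4* and 0.946 for *Dnajb9*, was 0.720 for *Ddit3* and 0.638 for *Herpud1*, and fell to between 0.215 and 0.447 for *Pdia4*, *Hspa5*, *Xbp1* and *Calr*, for which the relation therefore rests on those samples. An r of at least 0.7 was reached by 25.8% of all tested genes and an r of at least 0.9 by 13.7%, against 8 and 4 of the 10 genes. These relations hold for log2 CPM and were not computed in TPM. In TPM, *Xbp1* had 150.5 in vehicle replicate 1, the sample with the lowest index, above its other vehicle samples (138.5 to 149.8). *Calr* had 170.0 TPM in CNO replicate 1, below the 184.3 TPM of vehicle replicate 1. The gene levels and the index come from the same libraries, and 4 samples per group are too few for a correlation within each group.

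**Figure D4:**
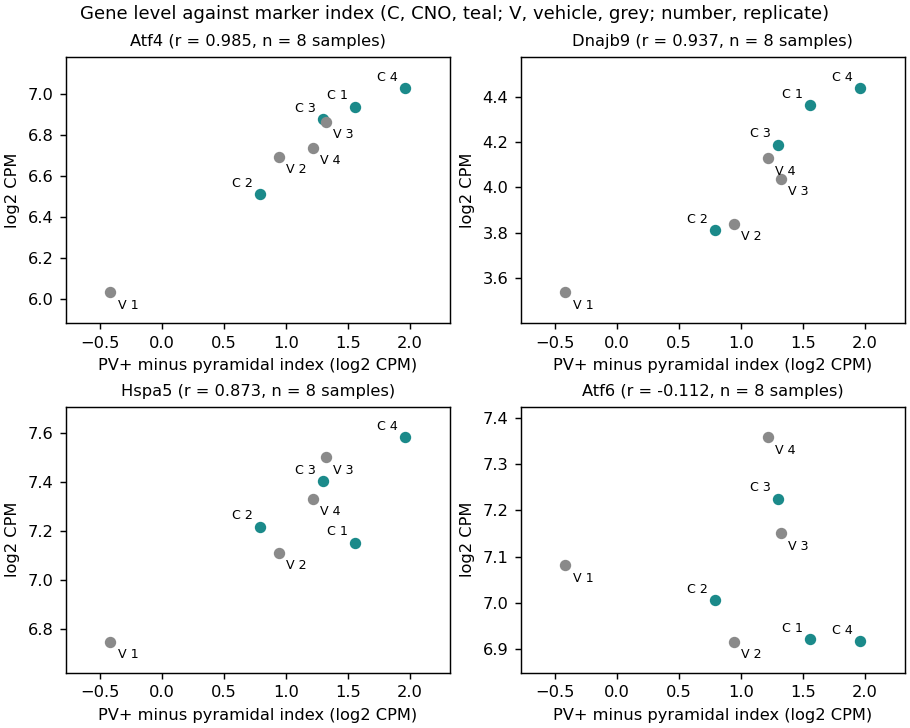
Log2 CPM of *Atf4*, *Dnajb9*, *Hspa5* and *Atf6* against the index of PV+ interneuron minus pyramidal cell markers, with 1 point per sample (C and teal, CNO; V and grey, vehicle; the number is the replicate). *Atf4* and *Dnajb9* rise along the whole range of the index (r = 0.985 and 0.937), the r of *Hspa5* falls from 0.873 to 0.302 without vehicle replicate 1 and CNO replicate 4, and *Atf6* shows no trend (r = -0.112).

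With the index as a term in the model, 2 of the 10 genes, *Dnajb9* (0.081) and *Herpud1* (0.062), had a log2 fold change above 0, against 44.5% of all tested genes, and the median was -0.055. *Atf4* then had -0.033, *Ddit3* -0.061 and *Hspa5* -0.052, with standard errors of 0.068, 0.085 and 0.10. None of the 10 passed an unadjusted p of 0.05 in this fit, against 3.27% of all genes. The index was measured after treatment, and the median log2 fold change (CNO minus vehicle) was 0.41 for its PV+ markers and -0.15 for its pyramidal cell markers. This fit therefore cannot separate the index from an effect of CNO. With 1 surrogate variable in place of the index, 3 of the 10 were above 0 (45.6% of all genes), and without vehicle replicate 1 there were 6 (48.7%), with a median of 0.019. In the remaining alternatives 6 to 9 of the 10 genes were above 0, against 35.4% to 51.2% of all genes.

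A further 65 genes of the pathway, in 5 lists, were all found and tested. Of these 0 were called (0.00% of all tested genes), and 1 was higher and 0 were lower at an unadjusted p under 0.05 (1.44% and 2.65% of all tested genes). A log2 fold change above 0 was found in 42, against 50.4% of all tested genes, and the median was 0.064, against 0.0014. That sign turned with the marker index in the model (25 above 0, median -0.024), against 44.5% and -0.016 over all tested genes. It also turned with 1 surrogate variable (26, median -0.012), against 45.6% and -0.012 over all tested genes. Without vehicle replicate 1, 34 were above 0 with a median of 0.0041, against 48.7% and -0.0040 over all tested genes. On log2(TPM + 1) with limma 27 were above 0, against 35.5% of all tested genes. There the median of -0.029 was below 0 but above that of all tested genes (-0.063). In the list of 5 UPR sensors and their processing proteases, log2 fold changes ran from -0.14 for *Mbtps2*, a protease that cuts ATF6, to 0.22 for *Ern1*, which encodes IRE1. In the 18 ER chaperones and folding enzymes they ran from -0.24 for *Dnajc1*, a co-chaperone, to 0.29 for *Manf*, a secreted ER stress protein. *Dnajc1* was higher and *Manf* lower in vehicle replicate 1 than in the other vehicle samples (0.77 and -0.78 on the log2 scale). In the 16 genes of ER-associated degradation the range was -0.16 (*Derl2*) to 0.53 (*Derl3*), both channel-like membrane proteins, and *Derl3* was low, at a mean of 1.58 TPM. In the 9 genes of ER translocation it was -0.061 (*Sec63*) to 0.24 (*Sec61g*, a subunit of the translocon, which in vehicle replicate 1 lay at -1.06 on the log2 scale relative to the other vehicle samples). *Uggt1*, the glucosyltransferase that checks the folding of glycoproteins, was named after its values were seen. It was the 1 gene of the 65 with all CNO samples below all vehicle samples (30.8 to 39.0 against 39.2 to 41.4 CPM, log2 fold change -0.16, quasi-likelihood adjusted p = 0.817), a pattern shown by 1.63% of all genes. In TPM its groups overlapped, with CNO replicate 2 (26.7) above vehicle replicate 4 (24.2).

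The exception in the 17 genes of the PERK arm and the integrated stress response was *Atf3* (ENSMUSG00000026628), a transcription factor gene that neurons also induce with activity. It had 1.19, 0.824, 1.09 and 2.06 CPM in CNO replicates 1 to 4 and 0.179, 0.278, 0.561 and 0.504 CPM in vehicle replicates 1 to 4. All CNO samples were above all vehicle samples, as in 0.789% of all tested genes, at a mean of 0.988 TPM. The log2 fold change of *Atf3* was 1.75 (standard error 0.40), and the quasi-likelihood test gave an unadjusted p of 0.00117 and an adjusted p of 0.817. Its adjusted p was 0.0230 in the likelihood ratio test and 0.0459 in DESeq2's test, and 0.0230 to 1.00 over all alternatives. The log2 fold change was 1.51 without vehicle replicate 1 and 1.18 with the marker index in the model. At the other end of that list stood *Trib3*, a target of ATF4 and CHOP, at -0.24 (standard error 0.41), with a mean of 0.758 TPM. *Atf4* and *Ddit3*, which act beside *Atf3* in this arm, had 0.24 and 0.18 in the same fit.

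**Figure D5:**
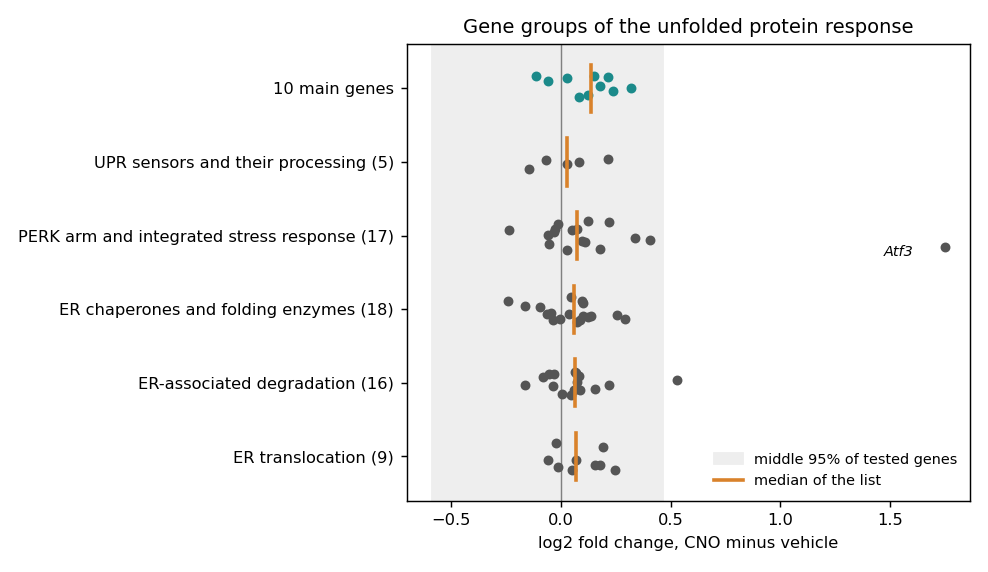
Log2 fold change (CNO minus vehicle) of the 10 UPR genes (teal) and of 65 other genes of the pathway in 5 lists (grey, number of genes in parentheses), with the median of each list (orange) and the range that holds the middle 95% of all tested genes (shaded). *Atf3*, at 1.75, lies far to the right of every other gene shown, and the median of the 10 genes is 0.14.

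The tested genes outside these lists whose pattern over the 8 samples was most like the mean log2 CPM of *Hspa5*, *Hsp90b1*, *Calr* and *Pdia4* were *Orai1* (Pearson's r = 0.983), *Shisa8* (0.982), *Gm14435* (0.982), *Tgfbr2* (0.982) and *Pls3* (0.975). That mean was lowest in vehicle replicate 1 (6.25) and highest in vehicle replicate 3 (6.86), with CNO samples from 6.51 to 6.82. Their log2 fold changes between CNO and vehicle were 0.039 to 0.28, and their adjusted p in the quasi-likelihood test 0.866 to 0.949.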

How the data were processed

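Ribosome-associated mRNA was sequenced in 8 pooled samples, 4 per group. Per the submitters' processing notes and the Methods, the reads were trimmed with Trim Galore, aligned with STAR to GRCm38 and quantified with Salmon. The authors deposited estimated counts per gene, not normalized, and TPM values, which take transcript length into account and add up to an equal total in each sample. The authors also deposited the table that pairs gene identifiers with names. Whether the counting used strand is not given in the sources used here.

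Here edgeR 4.0.16 in R 4.3.3 was applied to the rounded counts. A gene was tested unless 4 or more samples had under 10 counts of it. After TMM normalization the quasi-likelihood test contrasted CNO with vehicle, with Benjamini-Hochberg adjustment over 17495 genes. Intervals (95%) came from the same fit. Log2 CPM used a prior count of 2. The level of a single gene was also tested by exact permutation (two-sided, 70 assignments). P-values measure the spread between pools of brains. Alternatives changed the test (robust dispersion with the likelihood ratio test, DESeq2 1.42.0, limma 3.58.1 on log2 TPM with 1 or 0.1 added), the normalization, the filter and the covariates (sva 3.50.0), and left out each sample in turn. The total count per sample lay between 44064161 and 49413273. Gene models came from GENCODE M21 and promoters from RefSeq, both on GRCm38. Of the 9 promoters, 6 were matched to the gene strand through transcripts, and the other 3 (*Pdia4*, *Herpud1* and *Xbp1*) matched on neither strand. The strand of the printed *Herpud1* promoter is thus that of the annotation, which is plus in both RefSeq and GENCODE.

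The rule for the 10 UPR genes used no measured value, but they, the lists and the markers were chosen with earlier results of these data known. Genes named were the 10 UPR genes, those of the 5 other lists at an unadjusted p under 0.05 or with the largest or smallest log2 fold change of their list, and the 5 genes most like the mean of *Hspa5*, *Hsp90b1*, *Calr* and *Pdia4*.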

Additional observations from a re-analysis of the deposited data

Results flagged for a closer look

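In 22 groups of 4 samples (the log2 CPM of each UPR gene and of the marker index in either treatment), the distance of an extreme sample from the next was expressed relative to the full range of the 4. In 1 of them an extreme sample lay further out than the 95% limit of Dixon's test allows, where chance gives about 1.1. It was the *Ddit3* level in the vehicle samples (ratio 0.84), in which vehicle replicate 1 had a log2 CPM of 4.263, the next sample 4.942 and the highest 5.071. The same sample had the lowest index of PV+ interneuron minus pyramidal cell markers (-0.41), and the part of cell makeup or of the pulldown in this value was not tested.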

How the results depend on the processing

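Of the 10 genes 0 were called in each of 18 alternatives, and *Dnajb9*, *Herpud1* and *Atf6* kept their direction in all 18. Reversed log2 fold changes were as follows. With 1 surrogate variable in the model they were -0.034 for *Hspa5*, -0.0093 for *Atf4*, -0.029 for *Ddit3*, -0.12 for *Calr* and -0.036 for *Pdia4*. With the marker index in the model they were -0.052 for *Hspa5*, -0.0040 for *Xbp1*, -0.033 for *Atf4*, -0.061 for *Ddit3*, -0.13 for *Calr* and -0.058 for *Pdia4*. On log2 TPM with limma, *Xbp1* had -0.020 and *Calr* -0.077 with 1 added, and -0.020 and -0.078 with 0.1 added. The medians of all tested genes in those fits were -0.063 and -0.077. With library size only *Calr* had -0.025, where the median of all tested genes was -0.051, against 0.0014 in the main fit. Leaving out 1 sample reversed *Hsp90b1* (range -0.12 to 0.018, 0.00014 without CNO replicate 2 and 0.018 without vehicle replicate 3), *Calr* (-0.079 to 0.12, -0.024 without CNO replicate 3, -0.018 without CNO replicate 4 and -0.079 without vehicle replicate 1) and *Pdia4* (-0.0070 to 0.22, the lowest without vehicle replicate 1). The cause was not tested.

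Over all tested genes, 0 were called by the quasi-likelihood test (716 at an unadjusted p under 0.05), 15 by the likelihood ratio test with robust dispersion, 11 by DESeq2, 4 with no filter on low counts, and 0 to 2 with 1 sample left out, the 2 without CNO replicate 1. Among the 65 other UPR genes, 1 was called by the likelihood ratio test and 1 by DESeq2, in both cases *Atf3*, and 0 with any sample left out. In the order of vehicle TPM levels, 2 to 3 genes took another rank with a vehicle sample left out (3 without vehicle replicate 1), and leaving out a CNO sample, which moved 0, has no bearing on it.

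Same-numbered samples did not pair more closely than others. The correlations of their deviations were 0.0263, -0.0302, 0.161 and 0.239 for numbers 1 to 4, within the range of -0.403 to 0.431 for samples of different numbers. With a replicate block 0 of the 10 genes, 0 of the 65 and 0 of all tested genes were called, and the log2 fold changes were 0.17 for *Hspa5*, -0.060 for *Hsp90b1* and 0.32 for *Dnajb9*.

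With 4 pools per group, the intervals of the 10 genes had upper bounds of 1.11-fold to 1.60-fold and lower bounds of 0.773-fold to 0.974-fold, so changes within these bounds are not excluded. Counts per gene do not show splicing of *Xbp1*, protein levels or phosphorylation of the sensors, and part of the sequence of *Hsp90b1*, *Dnajb9* and *Ddit3* is shared with other gene models (12.34%, 10.77% and 6.78% of 31-base stretches). The motif search on the gene strand alone found a match in 3 of the 9 promoters, against 4 on both strands.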

Other observations

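With the marker index in the model, 4 of the 65 other UPR genes had an unadjusted p under 0.05, against 3.27% of all tested genes, and 0 an adjusted p under 0.05. These genes were named after their values were seen. *Atf3* had a log2 fold change of 1.18, *Ern1*, which encodes IRE1, 0.33, *Edem1*, a lectin of ER-associated degradation, 0.23 and *Pdia3*, a disulfide isomerase, -0.21, each by edgeR's quasi-likelihood test with an adjusted p of 0.999. The same 4 genes were under 0.05 with 1 surrogate variable, at 1.24, 0.32, 0.22 and -0.19, with adjusted p of 1.00.

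The response elements were also found in promoters of other genes of the pathway. Of the 54 genes with a promoter, 6 held ERSE, namely *Canx*, *Creld2*, *Derl3*, *Dnajc3*, *Pdia6* and *Syvn1*, against 0.119% of all promoters, and 1 held ERSE-II, *Dnajb11*, against 0.037%. The UPR element occurred in *Txndc5* and *Vcp*, and the C/EBP-ATF response element in *Nupr1*.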
